A study of Mus musculus with 4 samples.

Results

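Orm1, Orm2, Orm3, Hp, Hpx, Cebpd, Socs3 and Stat3 were followed through sections of mouse liver. These 8 genes were chosen by symbol, and all 8 were among the 19465 genes of the deposited count matrices. Orm1, Orm2 and Orm3 encode the orosomucoids, Hp haptoglobin and Hpx hemopexin, all of them plasma proteins secreted by hepatocytes. Cebpd, Socs3 and Stat3 encode a transcription factor, a feedback inhibitor and the signal transducer of the cytokine response that drives such proteins.

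The sections were formalin-fixed and assayed with Visium, which counts transcripts as unique molecular identifiers (UMIs) over an array of barcoded spots, each wide enough to hold several cells. Each of the 4 sections came from its own mouse, labelled male and 5 months old. All mice carried floxed Hk2 alleles (HK2fl/fl) and received tamoxifen at 75 mg/kg on 5 days, followed by a wait of 2 weeks. The healthy mouse then received olive oil. Both fibrotic mice, of the same HK2fl/fl genotype, received carbon tetrachloride (CCl4) at 1 µL per g of body weight, 2 injections per week for 6 weeks by the series' design text, while the treatment protocol names 4 or 6 weeks. The Hk2-deleted mouse (PDGFRBcreERT2/Hk2fl/fl) received CCl4 as well. Its tamoxifen-inducible Cre is driven by Pdgfrb, a gene of stellate cells and other pericytes, so hepatocytes, which make most transcripts of a liver section, keep Hk2. There was 1 healthy section, 2 fibrotic sections and 1 Hk2-deleted section.

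Fibrotic replicate 1 went against its label in that Y-linked transcripts were nearly absent from it, for example Ddx3y at 0.415 CPM against 47.0 to 52.4 CPM in the other sections. CPM is the UMIs of a gene relative to all UMIs of the section or class of spots, scaled to a common total. Fitted differences of the 8 genes in the section comparisons are therefore also given without fibrotic replicate 1. In the comparisons within sections, only some of the results are given without it. Whole-section Hk2 was 1.85 CPM in the healthy section, 4.88 and 3.94 CPM in fibrotic replicates 1 and 2, and 3.50 CPM in the Hk2-deleted section, so these sections do not show the deletion by themselves. Sections held 2577 to 4134 spots and 40585039 to 67479047 UMIs, with a median of 13665 to 15588 UMIs per spot. The 6 hepatocyte markers summed to 38507 CPM in the healthy section and to 29401 to 33167 CPM in the others. Apoa2 made up most of that sum, at 27465 CPM in the healthy section and 18333 to 20504 CPM in the others. Apoh was also lower in each CCl4-treated section, Ambp, Vtn and Gc were higher in each, and Apoc3 was higher in the fibrotic ones only. Levels given relative to the 6 hepatocyte markers are thus weighted toward Apoa2. Neutrophil markers (6 genes) summed to 17.8 CPM in the healthy section and to 515 to 1182 CPM after CCl4, macrophage markers (8) to 602 against 882 to 1276 CPM, stellate and fibroblast markers (6) to 240 against 511 to 690 CPM, and cholangiocyte markers (5) to 95.5 against 275 to 337 CPM. No marker of these lists was at 0 in any section. What part these cells had in the results on the 8 genes was not tested, and in whole sections fewer cells of a type and less RNA per cell cannot be told apart.

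As background, the acute phase response is a change in the plasma proteins that the liver secretes upon injury or infection. Cytokines of the interleukin 6 family bind receptors that share the gp130 chain (Il6st), and Janus kinases then phosphorylate STAT3, which enters the nucleus, while C/EBP beta and C/EBP delta add to the induction together with interleukin 1 signals. SOCS3, itself a STAT3 target, binds gp130 and ends the signal. Haptoglobin captures free haemoglobin for uptake through CD163, hemopexin captures free haem for uptake through LRP1, and orosomucoids carry small lipophilic molecules and modulate immune cells.

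Orm1, Orm3 and Orm2 lie next to each other on chromosome 4 (GRCm38.p6), at chr4:63344556-63348163, chr4:63356069-63359506 and chr4:63362449-63365877. Their transcripts are close copies, and how far the probes of the assay separate them is not given in the sources used here, so a share of UMIs of one gene may belong to another. Hp lies at chr8:109575128-109579172, Hpx at chr7:105591611-105600116, Cebpd at chr16:15887286-15889545, Socs3 at chr11:117966079-117970336 and Stat3 at chr11:100886806-100939594 of the same build. RefSeq promoter sequences of that build matched 5 of the 8 genes, Orm2, Orm3, Hpx, Socs3 and Stat3. The 250-base promoter sequences of the genes with a match to a C/EBP or a STAT motif are shown. The products of Cebpd and Stat3 are factors of these kinds, and their own levels are followed here. The sequences of Orm2 and Hpx end directly before the gene spans given above. That of Orm3 ends inside its gene span, at 63356157, and that of Socs3 lies wholly inside its gene span. All sequences were searched on both strands for the C/EBP letters TTGCNNAA and the STAT letters TTCNNNGAA. No matches overlapped, and capitals mark each match.

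Orm2, chr4:63362199-63362448, plus strand: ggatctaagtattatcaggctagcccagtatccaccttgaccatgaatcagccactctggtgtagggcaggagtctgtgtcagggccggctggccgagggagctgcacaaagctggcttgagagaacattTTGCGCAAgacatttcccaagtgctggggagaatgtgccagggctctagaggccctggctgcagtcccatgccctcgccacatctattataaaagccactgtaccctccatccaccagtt
Orm3, chr4:63355908-63356157, plus strand: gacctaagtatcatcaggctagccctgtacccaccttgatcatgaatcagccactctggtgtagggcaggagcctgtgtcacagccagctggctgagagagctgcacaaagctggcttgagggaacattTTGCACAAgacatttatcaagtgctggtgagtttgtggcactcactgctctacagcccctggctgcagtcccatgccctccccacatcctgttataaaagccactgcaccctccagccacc
Hpx, chr7:105600117-105600366, minus strand: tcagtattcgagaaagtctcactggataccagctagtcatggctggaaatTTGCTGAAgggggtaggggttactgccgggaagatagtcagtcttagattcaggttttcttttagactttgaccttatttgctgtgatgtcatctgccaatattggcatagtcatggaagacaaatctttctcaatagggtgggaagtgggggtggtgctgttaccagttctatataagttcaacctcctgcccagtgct
Socs3, chr11:117969367-117969616, minus strand: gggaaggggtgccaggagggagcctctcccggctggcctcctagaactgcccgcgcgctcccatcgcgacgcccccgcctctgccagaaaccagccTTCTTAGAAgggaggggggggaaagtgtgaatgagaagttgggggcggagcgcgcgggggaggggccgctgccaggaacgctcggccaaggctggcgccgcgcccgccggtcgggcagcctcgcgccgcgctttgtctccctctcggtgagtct

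The promoters of Orm2 and Orm3 were 85.9% identical, with 219 identical bases over 255 aligned columns. Both carried a C/EBP match at nearly the same distance from the end of the sequence, at -120 to -113 in Orm2 and at -121 to -114 in Orm3. All positions count back from the end of the sequence shown. Only in Orm2 and Hpx is that end also the gene start given above. Hpx had a C/EBP match at -200 to -193, Socs3 a STAT match at -154 to -146, and Stat3 neither. Of 32851 mouse promoters of this length, 9.56% held the C/EBP letters and 7.02% the STAT letters.

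At the level of whole sections, in CPM, the genes of secreted proteins rose in steps from the healthy to the Hk2-deleted section. With the scaling of the fits below, Orm1 and Hpx were not higher in fibrotic replicate 1 than in the healthy section. Orm1 stood at 1357 CPM in the healthy section, 1371 and 2792 CPM in fibrotic replicates 1 and 2, and 5750 CPM in the Hk2-deleted section. Its healthy level and that of fibrotic replicate 1 had overlapping counting intervals, 1347 to 1366 and 1362 to 1379 CPM (exact Poisson, 95%, counting error only). Orm2 stood at 46.0, 143, 462 and 1266 CPM in the same order of sections, which made its Hk2-deleted level 27.5 times the healthy one. Orm3 stood at 17.3, 50.5, 82.3 and 222 CPM, or 12.9 times the healthy level in the Hk2-deleted section. Neither gene had overlapping counting intervals between any sections.

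Both transport proteins of haemoglobin and haem had the same order of sections with a smaller range. Hp stood at 1054 CPM in the healthy section, 1444 and 2054 CPM in the fibrotic ones and 3675 CPM in the Hk2-deleted section. Hpx stood at 2613, 3378, 5186 and 8723 CPM in that order. The Hk2-deleted levels were 3.49 and 3.34 times the healthy ones for Hp and Hpx, against 4.24 for Orm1.

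Of the genes of the cytokine response, Cebpd had the same order of sections in CPM, and Socs3 and Stat3 did not. Cebpd stood at 26.4 CPM in the healthy section, 29.5 and 32.0 CPM in fibrotic replicates 1 and 2, and 47.1 CPM in the Hk2-deleted section. Its counting intervals overlapped between the fibrotic sections (28.3 to 30.9 and 30.3 to 33.8 CPM). In the fit below, which scales sections otherwise, its fibrotic minus healthy difference was -0.10 on the log2 scale. Socs3 stood at 48.6 CPM in the healthy section, fell to 19.7 and 31.9 CPM in the fibrotic ones, and stood at 59.4 CPM in the Hk2-deleted section. Stat3 followed Socs3 with a smaller range, at 127, 93.1, 96.7 and 136 CPM, and its counting intervals overlapped between the fibrotic sections. In CPM all 8 genes were thus highest in the Hk2-deleted section, and Socs3 and Stat3 were lowest in the fibrotic ones.

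**Figure D1:**
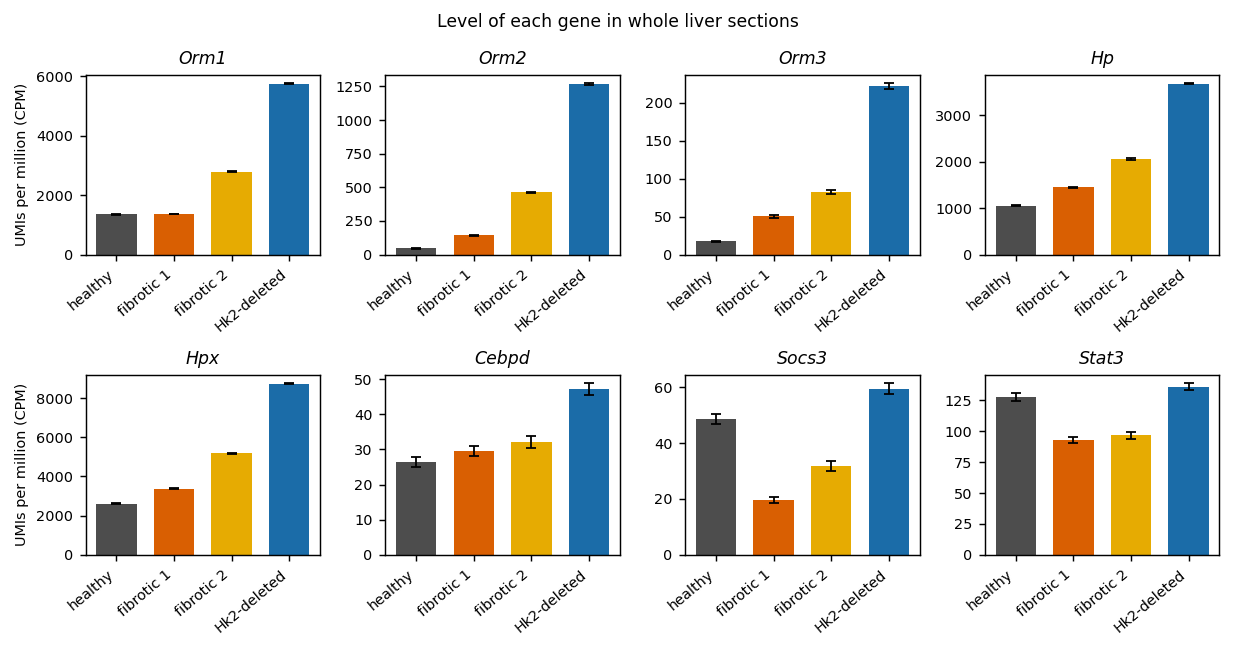
Level of each gene in whole sections, in CPM on axes that start at 0, with 1 bar per section and exact Poisson 95% intervals for counting error. Orm2 goes from 46.0 to 1266 CPM across the sections, while Socs3 is lowest in fibrotic replicate 1 at 19.7 CPM and highest in the Hk2-deleted section at 59.4 CPM.

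The spots showed how widely each transcript was found. Orm1, Hp and Hpx had a UMI in 99.7% or more of the spots of every section, with a median of 21 UMIs of Orm1 per spot in the healthy and 84 in the Hk2-deleted section. Orm2 had a UMI in 52.3% of healthy spots, in 86.0% and 97.8% of the spots of fibrotic replicates 1 and 2, and in 99.7% of those of the Hk2-deleted section. Orm3 went from 25.7% through 52.2% and 63.8% to 92.4%. Socs3 had a UMI in 53.4% of healthy spots, in 26.2% and 37.2% of fibrotic spots and in 59.0% of Hk2-deleted spots. The rises of Orm2 and Orm3 were therefore spread over most of the tissue rather than held by a few spots.

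The comparison of the fibrotic sections with the healthy one asks how each gene differed after CCl4. It rests on 1 healthy mouse, so the lack of CCl4 and that mouse cannot be told apart. Counts summed per section were fitted with edgeR's quasi-likelihood test, with scaling by TMM (trimmed mean of M-values) and Benjamini-Hochberg adjustment over all genes tested, and a gene was called at an adjusted p under 0.05. Of the 8 genes, 4 were called, against 13.7% of the 14125 genes tested. Orm2 rose by 2.44 ± 0.55 on the log2 scale (SE, adjusted p = 0.0052) and Orm3 by 1.64 ± 0.31 (adjusted p = 0.0013), where 9.64% of genes were called higher. Socs3 fell by 1.23 ± 0.25 (adjusted p = 0.0026) and Stat3 fell by 0.75 ± 0.24 (adjusted p = 0.038), where 4.01% were called lower. Orm1 (0.32 ± 0.60), Hp (0.42 ± 0.52), Hpx (0.40 ± 0.67) and Cebpd (-0.10 ± 0.20) were not called. The only spread between replicates in this fit is that between both fibrotic sections, and it was wide: Orm2 was 3.22 times and Orm1 2.04 times higher in replicate 2 than in replicate 1.

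Some of these calls depended on the library or the scaling. DESeq2 did not call Orm2 (2.43, adjusted p = 0.37), and it called Orm3, Socs3 and Stat3, where 7.7% of genes with an adjusted p were called. With fibrotic replicate 1 left out, Orm2 was at 3.09, Orm3 at 2.02, Orm1 at 0.81, Socs3 at -0.84 and Stat3 at -0.63, beside 0.73 for Hp, 0.75 for Hpx and 0.045 for Cebpd, values with no test. With replicate 2 left out, Orm2, Orm3, Orm1, Socs3 and Stat3 were at 1.21, 1.12, -0.42, -1.74 and -0.88. With CCl4 represented by the Hk2-deleted section and fibrotic replicate 2, both of which have Y-linked transcripts, Orm2 (3.89) and Orm3 (2.80) were called, as 13.5% of all genes were, and Socs3 (-0.42, adjusted p = 0.34) and Stat3 (-0.45, adjusted p = 0.18) were not. Scaled to total UMIs in place of TMM, which moved the median of all genes by 0.34 and the split of all calls from 1362 higher and 567 lower to 1878 and 206, Hp (0.73) and Hpx (0.71) were called higher, with 14.8% of all genes called, and Stat3 (-0.43, adjusted p = 0.12) was not called.

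Upstream of the 8 genes, the ligands were scarce. Of 12 ligands, 11 were tested, 3 rose and none fell: the gp130 ligands Osm (2.43 ± 0.77) and Clcf1 (1.43 ± 0.39) and the alarm cytokine Il1a (1.12 ± 0.25), with a median of 1.12 over the list against 0.00 over all genes tested. DESeq2 did not call Osm (adjusted p = 0.18) or Clcf1 (adjusted p = 0.086). Osm had 7 UMIs in the whole healthy section and 42 and 47 in the fibrotic ones. Il6 itself had 5 to 15 UMIs per section and was not called (-1.12 ± 0.85, edgeR adjusted p = 0.42), and Il22 had 0 UMIs in each section. Osm was at 2.68, Clcf1 at 1.30 and Il1a at 1.31 without fibrotic replicate 1. Of 9 receptor genes, edgeR called 1 higher, Il10rb (0.73), and none lower, with a median of -0.08. DESeq2 did not call Il10rb (adjusted p = 0.062) and called the LIF receptor Lifr lower (-0.78, adjusted p = 0.016), which edgeR had at -0.77 (adjusted p = 0.11) and which is named here after its values were seen. With total UMIs 4 ligands and 2 receptors were called higher and none lower. Of 13 kinases and transcription factors edgeR called 0, with 1 at an unadjusted p under 0.05, and DESeq2 called 0, while the median of -0.20 was 0.14 with total UMIs.

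Among 9 feedback inhibitors, the interleukin 1 antagonist Il1rn rose (1.10) and the mRNA-destabilising Zfp36 fell by 0.82 (not called with total UMIs, -0.50, adjusted p = 0.057), with a median of 0.00. Of 23 other acute phase targets of the liver, 2 rose and none fell, the siderophore-binding Lcn2 (3.64 ± 0.47) and the lipopolysaccharide co-receptor Cd14 (1.24 ± 0.27), and the median was 0.10. With total UMIs 6 of them were called higher, and DESeq2 called 3 higher and 2 lower. Leaving out fibrotic replicate 1 put Lcn2 at 4.14, Cd14 at 0.93, Il1rn at 0.74 and Zfp36 at -0.58. Of 7 negative acute phase genes edgeR called 0, and 0 at an unadjusted p under 0.05 (median -0.45), where DESeq2 called 1 lower. Of 7 genes of haem and haemoglobin clearance edgeR called 0, with 2 at an unadjusted p under 0.05 (median 0.04), and DESeq2 called 0, while 2 were called higher with total UMIs. Of 7 glucocorticoid targets 1 fell, Zbtb16, by 1.61. In the same fit 6 of 6 neutrophil, 5 of 8 macrophage, 4 of 6 stellate and 4 of 5 cholangiocyte markers were called higher, and of 6 hepatocyte markers 0 were called, adjusted or not.

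The comparison of the Hk2-deleted with the fibrotic sections asks what the deletion in Pdgfrb-expressing cells went along with. It rests on 1 Hk2-deleted mouse, so the deletion and that mouse cannot be told apart. All 8 genes had a positive difference and were higher in the Hk2-deleted section than in either fibrotic section. Only Orm3 was called, at 1.66 ± 0.27 (edgeR, adjusted p = 0.0083), where 0.227% of the 14125 genes were called and 0.142% were called higher. Orm2 (1.96 ± 0.47, adjusted p = 0.14), Socs3 (1.13 ± 0.25, adjusted p = 0.093) and Cebpd (0.55 ± 0.19, adjusted p = 0.73) were not called. Orm1 (1.38 ± 0.57), Hp (1.00 ± 0.50), Hpx (0.95 ± 0.64) and Stat3 (0.46 ± 0.24) also missed the threshold. With total UMIs in place of TMM, 6 of the 8 genes were called, all but Cebpd and Stat3, where 0.8% of all genes were, and with no filter on low counts Orm2 and Socs3 were called beside Orm3, where 0.682% were. Without fibrotic replicate 1 the differences were 1.28 for Orm3, 1.30 for Orm2 and 0.75 for Socs3, and without replicate 2 they were 2.18, 3.19 and 1.64. The others were at 0.89 for Orm1, 0.69 for Hp, 0.60 for Hpx, 0.40 for Cebpd and 0.34 for Stat3 without replicate 1.

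Of the 23 other acute phase targets, 3 rose, the serum amyloid Saa3 (3.50 ± 0.47), Lcn2 (2.10 ± 0.37) and the metallothionein Mt2 (2.08 ± 0.42), and none fell, with a median of 0.96 against -0.01 for all genes tested. With total UMIs 14 of the 23 were called higher, and DESeq2 called 4 but neither Saa3 nor Lcn2. Lcn2 stood at 119 and 250 CPM in the fibrotic sections and at 846 CPM in the Hk2-deleted one. The STAT5-induced inhibitor Cish fell by 1.92 ± 0.26 (adjusted p = 0.0013), the only call among 9 feedback inhibitors, from 41.8 and 56.9 CPM to 13.7 CPM. Without fibrotic replicate 1 Saa3 was at 5.21, Lcn2 at 1.61, Mt2 at 1.87 and Cish at -2.21. In each of the other lists edgeR and DESeq2 called 0. At an unadjusted p under 0.05 edgeR had 1 of 11 ligands, 1 of 9 receptors and 1 of 7 glucocorticoid targets, and 0 of the kinases and transcription factors, negative acute phase genes and haem clearance genes. Of the marker lists edgeR called 0 genes, although 6 of 6 neutrophil markers had an unadjusted p under 0.05, at a median of -0.87, and so had 3 of 4 red blood cell markers, at a median of -0.98. With total UMIs 5 of the 6 neutrophil and 3 of the 4 red blood cell markers were called lower. Neutrophil markers summed to 515 CPM in the Hk2-deleted section and 592 and 1182 CPM in fibrotic replicates 1 and 2, and red blood cell markers to 478 against 1210 and 562 CPM, with 420 CPM in the healthy section. Their part in the differences of the 8 genes was not tested.

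Spots were then placed along the liver lobule by a score of 9 pericentral and 12 periportal landmark genes and cut within each section into 3 zones of equal spot number, periportal, middle and pericentral. In the healthy section Hpx went from 3198 CPM in the periportal zone through 2392 to 1921 CPM in the pericentral zone. Hpx kept that slope in the other sections, from 4335 to 2659 CPM in fibrotic replicate 1, 6357 to 3860 CPM in fibrotic replicate 2 and 10695 to 6438 CPM in the Hk2-deleted section. Orm1 went from 1447 to 1187 CPM in the healthy section and, in CPM, more steeply after CCl4, from 1686 to 1062, 3322 to 2077 and 6871 to 4194 CPM. Relative to the 6 hepatocyte markers its log2 difference between these zones was -0.47 in the healthy section and -0.49 ± 0.09 after CCl4 (SD, n = 3), a gap smaller than the spread between sections. Hp was higher in the periportal zone of each section, at 1141 against 981 CPM in the healthy section and at 3902 against 3524 CPM in the Hk2-deleted one. In 10 bins of the score most of that step lay at the portal end: healthy Hp was at 1289 CPM in the most periportal bin, 1093 in the next and 994 in the most pericentral one.

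Orm3 changed the direction of its slope. In the healthy section it was at 14.8 CPM in the periportal, 18.7 in the middle and 19.6 CPM in the pericentral zone, and the counting intervals of the outer zones did not overlap (13.2 to 16.4 and 17.4 to 22.1 CPM). In 10 bins that healthy rise was not steady, from 13.1 CPM in the first to 21.8 CPM in bin 7 and 16.6 CPM in the last. In fibrotic replicate 1 it was at 73.0, 53.1 and 31.7 CPM, in fibrotic replicate 2 at 112, 78.2 and 51.6 CPM, and in the Hk2-deleted section at 269, 230 and 159 CPM. Periportal Orm3 was thus below pericentral Orm3 in the healthy section and above it in each of the 3 CCl4-treated ones. Orm2 had nearly flat healthy zones, at 44.9, 45.2 and 48.9 CPM with overlapping intervals, and fell toward the central vein after CCl4, from 158 to 125 CPM, from 547 to 356 CPM and from 1336 to 1171 CPM.

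Cebpd ran the other way. It was at 25.2 CPM in the periportal and 30.7 CPM in the pericentral zone of the healthy section, and at 19.9 against 39.9 CPM, 20.9 against 48.3 CPM and 33.5 against 71.8 CPM in fibrotic replicates 1 and 2 and the Hk2-deleted section. Its pericentral level was the higher one in every section, and the gap was wider in each of the 3 CCl4-treated ones. Socs3 was also highest in the pericentral zone of each section. Its outer zones had separate counting intervals in fibrotic replicate 1 (21.9 against 16.5 CPM) and the Hk2-deleted section (65.2 against 57.6 CPM), and overlapping ones in the healthy section (51.1 against 49.3 CPM) and fibrotic replicate 2 (34.9 against 31.0 CPM). Stat3 was lower pericentrally in the healthy section, at 120 against 135 CPM with separate intervals. In the others its intervals overlapped, at 94.6 against 94.1 CPM, 96.4 against 101 CPM and 134 against 139 CPM.

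**Figure D2:**
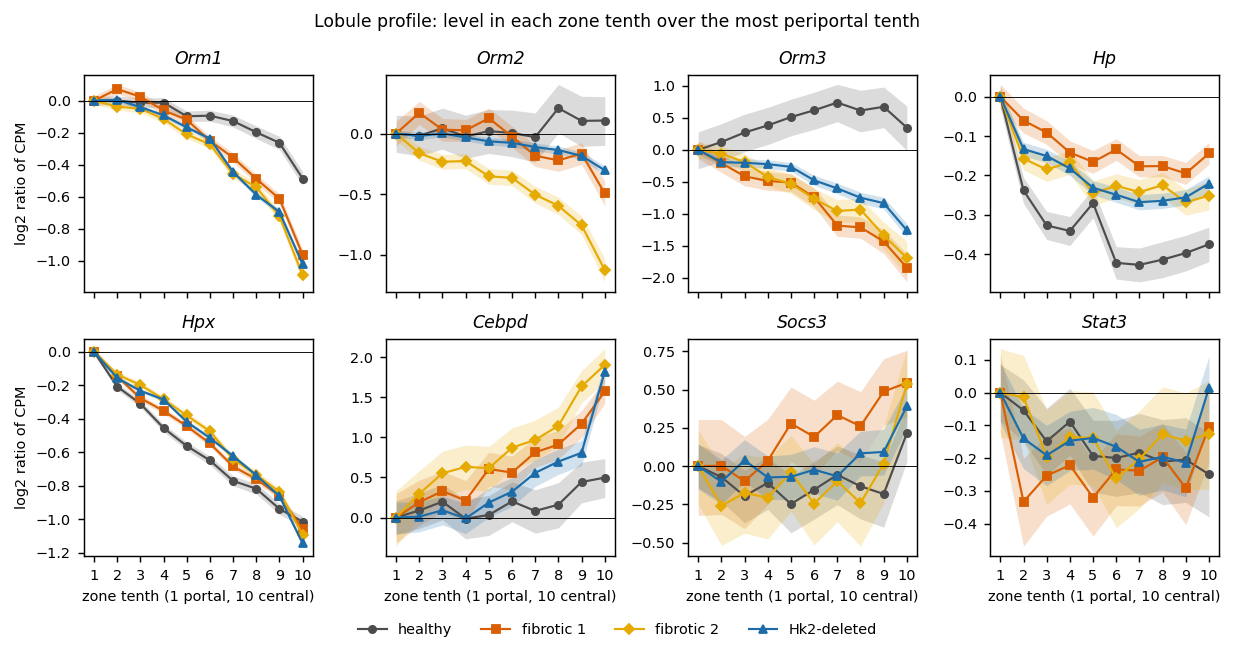
Level of each gene in 10 bins of the zone score, from the most periportal (1) to the most pericentral (10), as log2 of its CPM over that in the first bin of the same section, with bands for 95% counting intervals. Healthy Orm3 rises from 13.1 to 21.8 CPM by bin 7 and ends at 16.6 CPM, while Orm3 falls in the others, in the Hk2-deleted section from 297 to 124 CPM, and Cebpd climbs there from 32.7 to 116 CPM.

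Summed counts of the outer zones, with the section as a block, gave 6 calls among the 8 genes, where 13.3% of 12678 genes were called, 7.24% higher and 6.03% lower in the pericentral zone. Over all 4 sections Orm1 fell by 0.80 ± 0.12 toward the central vein (edgeR, adjusted p = 0.0072), Hpx by 0.93 ± 0.10 (adjusted p = 0.0022) and Orm3 by 0.95 ± 0.24 (adjusted p = 0.042). Hp (-0.36 ± 0.08) and Stat3 (-0.28 ± 0.055) were also called lower, and Cebpd was higher by 0.69 ± 0.12 (adjusted p = 0.012). Orm2 (-0.48 ± 0.13, adjusted p = 0.053) and Socs3 (-0.01) were not called. Leaving out any of the CCl4-treated sections left only Hpx called, where 2.42%, 2.47% and 2.66% of all genes were (without fibrotic replicate 1, fibrotic replicate 2 and the Hk2-deleted section), with adjusted p of 0.03 to 0.042 for it and 0.066 to 0.084 for Orm1. In the 3 CCl4-treated sections alone, where 42.0% of 12833 genes were called, Orm2 was called too, at -0.63 ± 0.07, with Orm3 at -1.24 ± 0.08, Orm1 at -0.94 ± 0.05 and Cebpd at 0.85 ± 0.06.

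The scaling mattered for the weaker slopes. With total UMIs in place of TMM the median of all genes moved by 0.21 and the calls went from 918 higher and 764 lower to 4473 and 374. Hp (-0.15, adjusted p = 0.091) and Stat3 (-0.07, adjusted p = 0.31) were then no longer called over the 4 sections, while Orm1, Orm3, Hpx and Cebpd were, with 38.2% of all genes. The pericentral zones of the CCl4-treated sections also held more of other cells: their neutrophil markers summed to 694 to 1616 CPM against 349 to 679 CPM in the periportal zones, their stellate and fibroblast markers to 838 to 960 against 265 to 389 CPM, and their hepatocyte markers to 26938 to 31383 against 32413 to 34910 CPM. In the healthy section hepatocyte markers summed to 41235 CPM pericentrally and 36351 CPM periportally. Relative to the 6 hepatocyte markers the pericentral level after CCl4 was lower by 0.83 ± 0.18 for Orm3 (SD, n = 3) and by 0.53 ± 0.08 for Hpx, while Orm2 (-0.19 ± 0.21) and Hp (0.07 ± 0.09) lay within their spread of 0. The healthy section had 0.23 for Orm3, -0.92 for Hpx, -0.06 for Orm2 and -0.40 for Hp on that reference.

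Whether the lobule profile differed with CCl4 was tested as a term of the fit, the pericentral minus periportal difference in the 3 CCl4-treated sections minus that in the healthy one. Of the 8 genes 4 were called, against 18.4% of 12678 genes, 8.46% higher and 9.98% lower. Orm3 had the largest term of the 8, -1.52 ± 0.20 (edgeR, adjusted p = 0.00013), followed by Orm2 at -0.63 ± 0.16 (adjusted p = 0.011) and Orm1 at -0.53 ± 0.10 (adjusted p = 0.0015). Cebpd had a positive term of 0.69 ± 0.12 (adjusted p = 0.0011). Hpx (-0.11 ± 0.10), Hp (-0.04 ± 0.10), Socs3 (0.06 ± 0.11) and Stat3 (0.00 ± 0.09) were not called. DESeq2, total UMI scaling, 4 zones in place of 3 and leaving out any CCl4-treated section each kept 4 calls, with Orm3 between -1.40 and -1.72. The share of all genes called was 7.92% with DESeq2, 16.2% with total UMIs, 18.0% with 4 zones, and 18.5%, 21.4% and 19.1% without fibrotic replicate 1, fibrotic replicate 2 and the Hk2-deleted section. Without collagen-high spots the orosomucoid terms stayed called (Orm3 -1.33, Orm2 -0.51, Orm1 -0.37) and that of Cebpd was not (0.39, adjusted p = 0.054). The healthy side of this term is 1 section. In the same fit 3 of 6 hepatocyte markers were called lower (median -0.31) and 6 of 6 stellate and fibroblast markers higher. Relative to the hepatocyte markers the difference between the CCl4-treated and healthy slopes was -0.02 for Orm1 and -0.13 for Orm2, within the SD of 0.09 and 0.21 between the CCl4-treated sections, and -1.06 for Orm3 and 1.19 for Cebpd, beyond it. On that reference Hp (0.47), Hpx (0.39), Socs3 (0.58) and Stat3 (0.51) had positive differences, all values with no test.

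No gene at all, and so none of the 8, was called for a peak or trough in the middle zone by edgeR, where 0.0% of 12898 genes passed and 424 genes, Cebpd (-0.19) among the 8, had an unadjusted p under 0.05. DESeq2 called 0 as well. The other genes of the pathway followed the lobule in part. Of 22 other acute phase targets, 16 were lower in the pericentral zone and none higher (median -0.62 against 0.00 for all genes tested), led by Mt2 (-1.21), and with total UMIs 13 were lower and 3 higher. Of 7 ligands, 2 were higher, Tnf (1.31, DESeq2 adjusted p = 0.059) most, and of 9 receptors 2 were higher and 2 lower, with the interleukin 1 co-receptor Il1rap at -0.53. Of 13 kinases and transcription factors 2 were lower, the hepatocyte factor Hnf4a (-0.41) more than the other. Cish (-0.48) was the only call of 9 feedback inhibitors. With total UMIs the median of receptors went from 0.06 to 0.27, that of kinases and transcription factors turned from -0.08 to 0.13, and 5 genes of each of these lists and of the feedback inhibitors were called higher. Of 7 negative acute phase genes edgeR called 0, with 1 at an unadjusted p under 0.05, and DESeq2 called 4 lower. Of 7 haem clearance genes 1 was higher, the biliverdin reductase Blvrb (0.68), and 1 lower, and 2 of 6 glucocorticoid targets were lower, with the tyrosine aminotransferase Tat at -0.76. Without fibrotic replicate 1, Mt2 and Blvrb were still called, and Tnf, Il1rap, Hnf4a, Cish and Tat were not.

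Distance from scar was measured in steps on the hexagonal spot grid from collagen-high spots, the 10% of spots of a section with the largest share of UMIs from Col1a1, Col1a2 and Col3a1. In the CCl4-treated sections 71.2%, 80.2% and 70.7% of them (fibrotic replicates 1 and 2, Hk2-deleted) lay in the pericentral zone, against 41.5% in the healthy section. Orm1 was lower there than at 3 or more steps, at 922 against 1535 CPM in fibrotic replicate 1, 1912 against 3073 CPM in replicate 2 and 3607 against 6140 CPM in the Hk2-deleted section. Orm3 was at 22.5 against 63.1 CPM, 48.3 against 97.9 CPM and 135 against 245 CPM. Orm2 was at 99.0 against 159 CPM, 323 against 516 CPM and 1030 against 1347 CPM. Hpx was at 2448 against 3773 CPM, 3628 against 5716 CPM and 5732 against 9502 CPM. All 3 orosomucoid genes and Hpx were thus lower at collagen-high spots in each CCl4-treated section.

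Hp differed little, at 1354 against 1481 CPM, 1915 against 2127 CPM and 3614 against 3686 CPM. Cebpd was the gene that rose with collagen, at 58.3 against 21.8 CPM in fibrotic replicate 1, 66.8 against 26.8 CPM in replicate 2 and 128 against 33.6 CPM in the Hk2-deleted section. Socs3 was at 25.4 against 18.2 CPM, 45.8 against 30.9 CPM and 79.3 against 56.6 CPM, and Stat3 at 106 against 91.7 CPM, 105 against 98.7 CPM and 156 against 131 CPM. In CPM all 3 genes of the cytokine response were therefore higher at collagen-high spots in each of these sections, though the counting intervals of Stat3 overlapped in fibrotic replicate 2. The healthy section had no such pattern for the orosomucoids: Orm1 was at 1361 against 1289 CPM, Orm2 at 43.2 against 47.6 CPM and Orm3 at 16.7 against 17.1 CPM, while Cebpd was at 32.3 against 24.6 CPM. Healthy Hp was lower at collagen-high spots, at 1022 against 1144 CPM, and Socs3 (49.0 against 52.3 CPM) and Stat3 (125 against 134 CPM) were not higher there. Collagen-high spots are a fixed share of each section. Whole-section Col1a1 was at 7.83 CPM in the healthy section and at 165 to 394 CPM in the others. Cholangiocyte markers summed to 263 CPM in healthy collagen-high spots against 65.9 CPM at 3 or more steps. After CCl4 they summed to 399 to 538 against 253 to 304 CPM. Whether healthy collagen-high spots lie in the same structures as those after CCl4 was not tested.

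**Figure D3:**
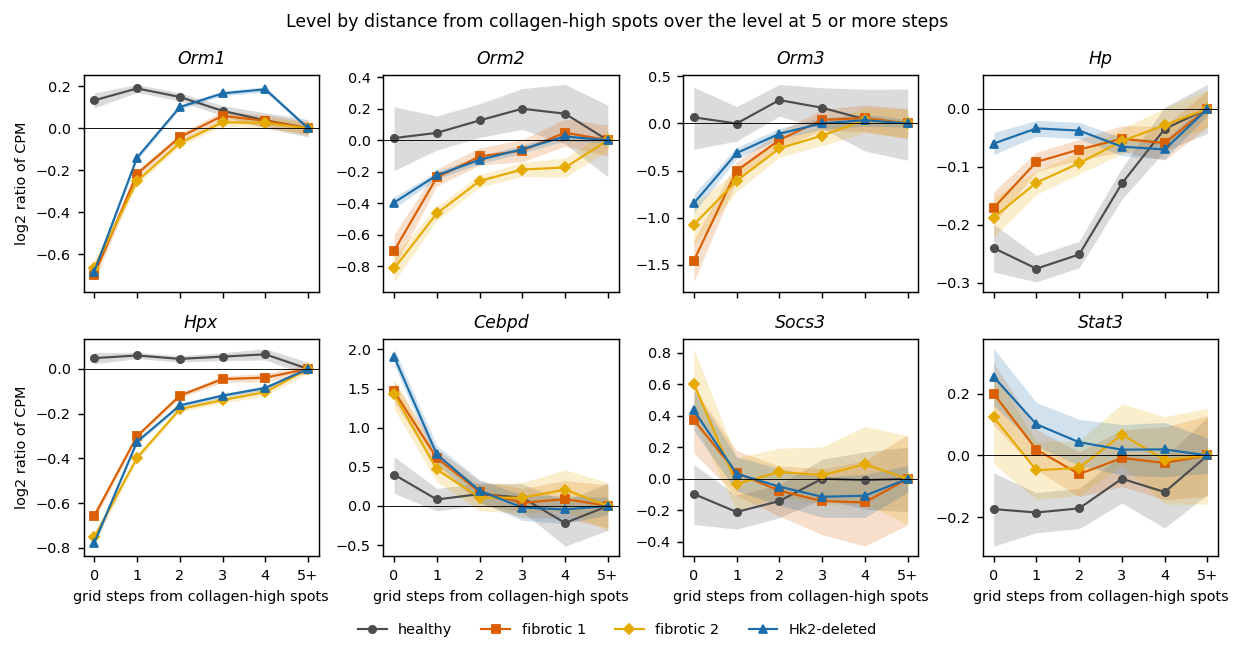
Level of each gene by grid steps from the nearest collagen-high spot (0), as log2 of its CPM over that at 5 or more steps in the same section, with bands for 95% counting intervals. After CCl4 the orosomucoids and Hpx are lowest at 0 steps and higher at 1 and again at 2 steps, and Cebpd is high at 0, for example 128 CPM in the Hk2-deleted section. At 0 steps the healthy lines of these 5 genes lie closer to 0, while that of Hp lies further below 0 than in the other sections.

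In the fit of the 3 CCl4-treated sections with the section as a block, 7 of the 8 genes were called at collagen-high spots, where 53.8% of 12720 genes were, 26.3% higher and 27.6% lower. The count is thus to be read against a background in which most genes differed. Orm3 was lower by 1.42 ± 0.07 on the log2 scale, Orm1 by 1.09 ± 0.04, Hpx by 1.03 ± 0.04 and Orm2 by 0.93 ± 0.05, with edgeR adjusted p between 1.5e-14 and 3.1e-12. Cebpd was higher by 1.26 ± 0.08 (adjusted p = 2e-11). Hp was called lower (-0.47 ± 0.04) and so was Stat3 (-0.17 ± 0.05, adjusted p = 0.0056), and Socs3 was not called (0.13 ± 0.06, adjusted p = 0.085). Without fibrotic replicate 1 the same 7 genes were called, where 45.2% of all genes were, with Orm3 at -1.29, Orm1 at -1.09, Hpx at -1.06, Orm2 at -0.88, Hp at -0.46, Stat3 at -0.19 and Cebpd at 1.34.

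The direction of Stat3 and the calls of Socs3 depended on the scaling. With total UMIs in place of TMM, which moved the median of all genes by 0.35 and the split of calls from 3340 higher and 3506 lower to 8057 and 874, Stat3 was higher (0.19, adjusted p = 0.0011) where TMM had it lower, Socs3 was higher (0.50, adjusted p = 8.1e-07) and Hp was lower by 0.10 (adjusted p = 0.013). Without fibrotic replicate 2 Stat3 was at -0.13 (adjusted p = 0.051) under TMM. The orosomucoids, Hpx and Cebpd kept their direction under both scalings, at -0.73 for Orm1, -0.56 for Orm2, -1.05 for Orm3, -0.67 for Hpx and 1.62 for Cebpd with total UMIs. Collagen-high spots also held fewer hepatocyte transcripts, 24099 to 27826 CPM for the 6 markers against 30916 to 34452 CPM at 3 or more steps, with 6 of 6 called lower. Neutrophil markers summed to 1100 to 2866 CPM against 313 to 916 CPM (6 of 6 higher) and stellate and fibroblast markers to 1203 to 1306 against 367 to 514 CPM (6 of 6), and 4 of 4 mesothelial markers were called higher. The part of these cells in the differences was not tested.

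Set against the 6 hepatocyte markers, the levels at collagen-high spots were still lower by 0.40 ± 0.05 for Orm1, 0.26 ± 0.16 for Orm2, 0.80 ± 0.30 for Orm3 and 0.34 ± 0.08 for Hpx (SD, n = 3). Hp was then higher by 0.22 ± 0.06, Stat3 by 0.51 ± 0.09, Socs3 by 0.84 ± 0.04 and Cebpd by 1.88 ± 0.31. Hp and Hpx, both scavenger proteins of hepatocytes, therefore lay on opposite sides of the hepatocyte markers. Within the pericentral zone alone, collagen-high spots were lower in Orm1 by 0.74, in Orm2 by 0.70, in Orm3 by 1.00 and in Hpx by 0.66. Cebpd was higher there by 1.12 (edgeR, all of these called, as 35.2% of all genes were), while Stat3 was at -0.02 (adjusted p = 0.89). The zone score can still differ between spots of that zone, and whether it did was not tested. In the periportal zone Orm1 (-0.45), Orm2 (-0.30), Orm3 (-0.47), Hpx (-0.45) and Hp (-0.20) were called and Cebpd (0.69, adjusted p = 0.11) was not. Of all genes 9.25% were called in the periportal zone.

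The difference reached beyond the collagen-high spots. At 1 step, 6 of the 8 genes were called against the spots at 3 or more steps, where 12.5% of genes were, 6.2% higher and 6.34% lower. Orm3 was lower by 0.57 ± 0.06, Hpx by 0.39 ± 0.04, Orm2 by 0.37 ± 0.05, Orm1 by 0.36 ± 0.04 and Hp by 0.16 ± 0.04, and Cebpd was higher by 0.45 ± 0.08 (adjusted p = 0.00047). Socs3 (-0.05 ± 0.06) and Stat3 (-0.09 ± 0.04) were not called. At 1 step 6 of 6 hepatocyte markers were also called lower (median -0.22). Neutrophil markers (6 of 6) and stellate and fibroblast markers (6 of 6) were called higher. Relative to the hepatocyte markers Hp was at 0.03 ± 0.03, Orm1 at -0.17 ± 0.006 and Orm2 at -0.17 ± 0.05 (SD, n = 3, no test). Hpx was at -0.20 ± 0.02, Orm3 at -0.39 ± 0.11 and Cebpd at 0.61 ± 0.15. The part of these cells was not tested. Hp was no longer called without either fibrotic section (adjusted p of 0.091 and 0.086) or with total UMIs (-0.05, adjusted p = 0.35), under which the calls of all genes went from 789 higher and 806 lower to 2208 and 203. By 2 steps the log2 difference in CPM from 3 or more steps was -0.05 ± 0.06 for Orm1 and 0.11 ± 0.11 for Cebpd (SD, n = 3), near the spread between the sections. Orm3 (-0.18 ± 0.05), Orm2 (-0.11 ± 0.02) and Hpx (-0.10 ± 0.02) were still lower by more than that spread, with no test.

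**Figure D4:**
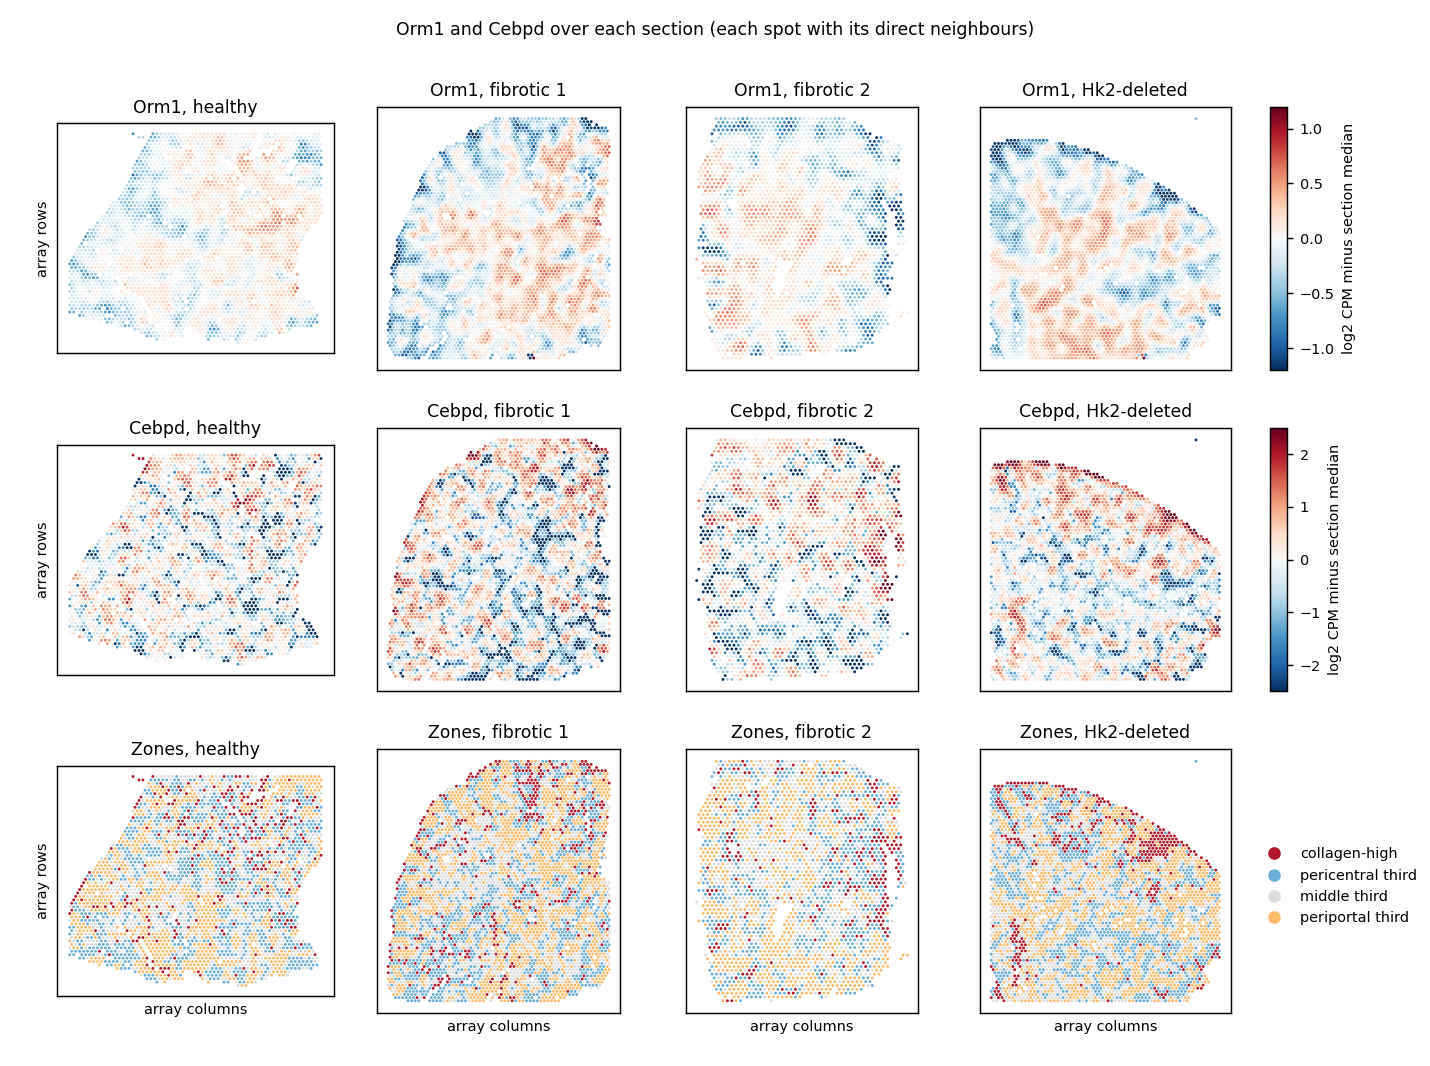
Orm1 and Cebpd over the 4 sections, as log2 CPM of each spot summed with its direct neighbours minus the section's median, with a map of the zones below, collagen-high spots in red. In the Hk2-deleted section Cebpd is high over red patches, at 128 CPM in collagen-high spots and 33.6 CPM at 3 or more steps, and Orm1 is low there, at 3607 against 6140 CPM.

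Cebpd was the only one of the 8 genes whose rise at collagen-high spots differed between the Hk2-deleted and the fibrotic sections, by 0.51 ± 0.12 (edgeR, adjusted p = 0.036), where 1.12% of genes were called, 0.833% higher and 0.291% lower. Orm3 (0.37 ± 0.12, adjusted p = 0.17) and Orm2 (0.26 ± 0.08, adjusted p = 0.12) were not called. The term for Cebpd was not called by DESeq2 (0.53, adjusted p = 0.92), with collagen-high spots set at 20% (0.31, adjusted p = 0.42), without spots near the liver surface (0.42, adjusted p = 0.68) or within the pericentral zone (0.61, adjusted p = 0.058). It was called with 5% (0.53, adjusted p = 0.017) and with total UMIs (0.55, adjusted p = 0.016). Without fibrotic replicate 1 it was 0.61, a value with no test.

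Around collagen the acute phase targets were mostly lower under both scalings, and several other lists turned with the scaling. Of 22 other acute phase targets 18 were lower and 2 higher, Saa3 (3.64 ± 0.30) and Cd14, with a median of -0.79, and 7 of 7 negative acute phase genes were lower, led by the fetuin Ahsg (-0.75, median -0.56). With total UMIs 17 of the targets were lower and 4 higher, and 5 of the 7 negative acute phase genes were lower. Of 7 ligands 4 were higher and 1 lower, with Tnf at 0.87 ± 0.28 (DESeq2 adjusted p = 0.051), and of 9 receptors 5 were higher and 3 lower, with Il1rap at -0.78. Of 13 kinases and transcription factors 1 was higher and 5 lower, led by Hnf4a (-0.73), and of 9 feedback inhibitors 2 were higher, Socs1 (0.63, DESeq2 adjusted p = 0.056) among them, and 3 lower. With total UMIs these counts became 9 higher and 2 lower of the 13, and 5 higher and 0 lower of the 9. Haem clearance genes divided into 3 higher, with the haem exporter Flvcr1 at 0.86, and 3 lower. Of 7 glucocorticoid targets 4 were lower, led by the gluconeogenic enzyme Pck1 (-1.31), and with total UMIs 3 were higher and 2 lower.

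**Figure D5:**
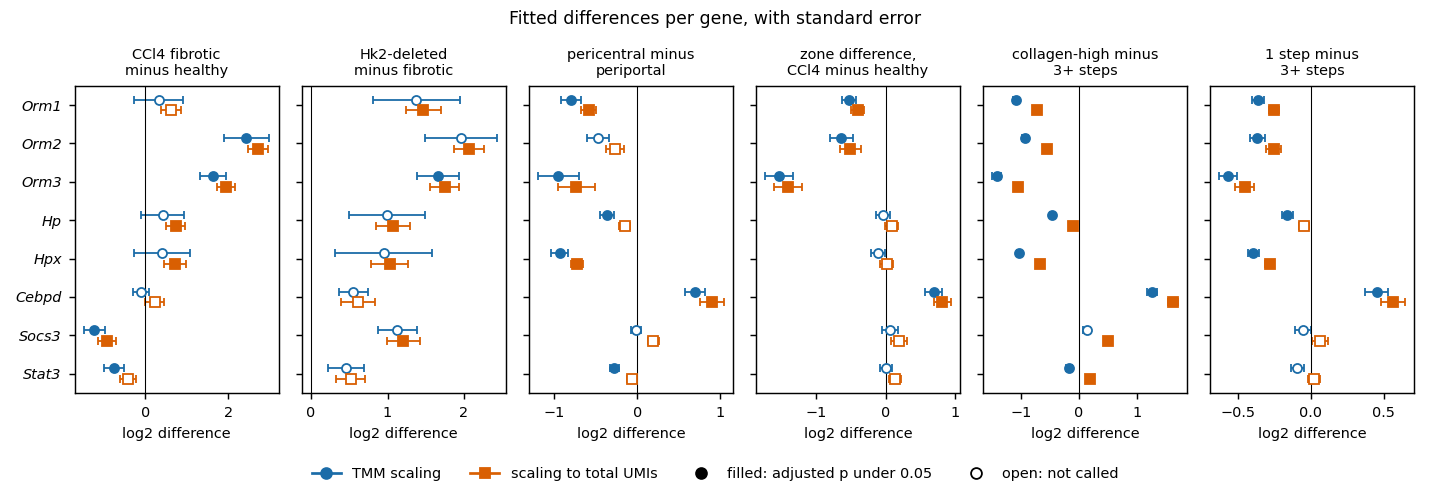
Fitted log2 differences of the 8 genes in 6 comparisons, with standard errors, under TMM scaling (circles) and scaling to total UMIs (squares), filled where the adjusted p was under 0.05. The orosomucoids and Hpx lie left of 0 and Cebpd right of it in the zone and collagen panels under both scalings, whereas Stat3 at collagen-high spots moves from -0.17 to 0.19.

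The authors' deposited table gives Moran's I per gene, a score of how far neighbouring spots resemble each other, with 1 section per value. In the authors' deposited table Hp had a score of 0.276 in the healthy section, 0.194 and 0.321 in fibrotic replicates 1 and 2, and 0.495 in the Hk2-deleted section, where it ranked 3 of 17028 genes listed. The score of Orm1 in the authors' deposited table was 0.220 in the healthy section, and 0.286, 0.393 and 0.392 in the others. Orm2 went from 0.0259 in the healthy section to 0.0675, 0.186 and 0.162 in the authors' deposited table, and Cebpd from 0.00288 to 0.0353, 0.0538 and 0.0773. Orm3 went from 0.00906 to 0.0662, 0.0849 and 0.121 in the authors' deposited table, and Hpx from 0.304 to 0.281, 0.361 and 0.349. Socs3 was lower after CCl4 in the authors' deposited table, from 0.0275 to 0.0143, 0.0141 and 0.0209. So was Stat3, from 0.0366 to 0.0268, 0.0206 and 0.0254. Such scores also grow with the number of UMIs of a gene, so the part of the levels in these differences was not tested.

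Across the 12 levels of zones by sections, which share 4 libraries, the genes fell into sets that varied alike. Pearson's r of log2 levels was 0.919 to 0.981 between the pairs of Orm1, Orm2, Orm3, Hp and Hpx, and 0.908 between Socs3 and Stat3, while Cebpd reached at most 0.521, with Hp. Among 8085 genes with at least 10 CPM over all sections, those most like Orm2 were Rara (0.986), Hp (0.981), Ifitm2 (0.981), Hrg (0.976) and Kcnk5 (0.973). Those most like Hp were Ifitm2 (0.988), Orm2 (0.981), Atp11a (0.967), Cfb (0.966) and Sfxn5 (0.965). Those most like Socs3 were Per1 (0.964), Dnajc12 (0.954), Rab18 (0.947), Pdf (0.935) and Steap4 (0.924). These likenesses rest largely on the order of the 4 sections and describe these libraries.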

How the data were processed

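The deposited matrices hold UMI counts per gene and spot, made by the authors with Space Ranger 2.0.0 per the file headers. The authors also deposited a spatial score (Moran's I) per gene. Counts were summed per section, zone or distance class, since spots are not replicates, and tested with edgeR 4.0.16 (TMM, filterByExpr, quasi-likelihood test, Benjamini-Hochberg over all genes tested, called under 0.05) in R 4.3.3, with the scripts tested on simulated data. In the section fit only both fibrotic sections inform the spread, which the lone sections are taken to share. CPM values are raw, and log2 differences are TMM-scaled fits unless stated. The zone score of a spot is its mean z, over log2(CPM + 1), for pericentral landmarks less that for periportal ones. Landmarks and collagen genes were left out of the background of their comparisons. Alternatives were DESeq2 1.42.0, no filter, other cut-offs, left-out sections and spots, and, chosen after seeing the data, total UMIs and hepatocyte markers as references. The 8 genes and the pathway, marker and landmark lists were chosen with earlier results of these data known. The 8 genes were named throughout, and of each pathway list at most 4 called genes with the largest change. Each mouse gave 1 section. The p-values rest on the spread between these sections, or between their zones or distance classes with the section as a block. The edgeR fit moderates that spread for each gene with the spread of all genes tested.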

Additional observations from a re-analysis of the deposited data

Results flagged for a closer look

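The slope of 4 of the 8 genes from the periportal to the pericentral zone differed between the CCl4-treated sections and the healthy section by the interaction term that tests this difference: Orm3 by -1.52, Orm2 by -0.63, Orm1 by -0.53 and Cebpd by 0.69 on the log2 scale, where 18.4% of 12678 genes were called. Relative to hepatocyte markers the difference was -0.02 for Orm1 and -0.13 for Orm2, within the spread between the CCl4-treated sections. The rise of Cebpd at collagen-high spots differed between the Hk2-deleted and the fibrotic sections by 0.51, again by the interaction term, where 1.12% of 12720 genes were called. Each term sets 1 section against the rest, so the condition and that mouse cannot be told apart. No group had enough sections for a search for single outlying ones.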

How the results depend on the processing

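Of the 8 members, the CCl4 comparison called 2 with the Hk2-deleted section and fibrotic replicate 2 as the CCl4 group. In that fit 13.5% of all genes were called. The Hk2 comparison called 3 members without a filter (0.682% of all genes) and 6 with total UMIs (0.8%). The zone comparison called 1 member when any 1 CCl4-treated section was left out (2.42% to 2.66% of all genes). It called 7 without the healthy section (42.0%). At 1 step from collagen 3 members were called within the periportal zone, where 1.37% of all genes were. The collagen-high by Hk2 term called 3 members without a filter, where 1.98% of all genes were called. It called 0 with DESeq2 (0.223% of all genes), 20% of spots (0.289%) or no surface spots (0.103%). It also called 0 in the pericentral (1.46%) or periportal zone alone (0.104%). The other 54 counts of members under alternatives stayed within 1.5 times those reported. Of 624 single values of the 8 genes, 486 counted as unchanged. Those with a test kept direction and side of the threshold. Those without a test kept direction and lay within 1 SE of the reported value.

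Signs turned in 39. Fibrotic against healthy: Cebpd was at 0.26 with the second CCl4 group, 0.22 with total UMIs and 0.53 relative to hepatocyte markers, and spanned -0.27 to 0.045 when a fibrotic section was left out, Orm1 -0.42 to 0.81 and Hpx -0.061 to 0.75. Zone: Socs3 was at 0.037 with 4 zones, 0.015 with fewer landmarks, 0.19 with total UMIs, 0.24 with total UMIs after CCl4 and 0.30 relative to hepatocyte markers, and spanned -0.064 to 0.011 without a section, and Stat3 was at 0.032 relative to hepatocyte markers. Zone by CCl4: Stat3 was at -0.014 with DESeq2, -0.0081 with fewer landmarks and -0.014 without collagen-high spots, and spanned -0.017 to 0.027 without a section. Hp was at 0.026, Hpx at 0.011 and Socs3 at -0.012 without collagen-high spots, Hp at 0.090 and Hpx at 0.016 with total UMIs, and Hp at 0.47 and Hpx at 0.39 relative to hepatocyte markers. Collagen-high: Socs3 was at -0.050 with 20% of spots and -0.51 periportally, Stat3 at 0.097 periportally, 0.19 with total UMIs and 0.51 relative to hepatocyte markers, and Hp at 0.22 relative to those. At 1 step: Socs3 was at 0.062 and Stat3 at 0.021 with total UMIs. Collagen-high by Hk2: Orm1 was at 0.099 with 20% of spots and 0.058 periportally, Socs3 at 0.47 pericentrally, Hp at -0.27 and Stat3 at -0.048 without surface spots, and Stat3 spanned -0.039 to 0.16 without a fibrotic section. The cause of these turns was not tested.

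Counts of all genes called moved by over 1.5 times as follows. Fibrotic against healthy had 1929 genes and 1024 with DESeq2. The Hk2 comparison had 32 genes, 21 with DESeq2, 126 without a filter, 18 without high Saa3 spots and 113 with total UMIs. The zone comparison had 1682 genes, 5386 without the healthy section, 301 to 331 without a CCl4-treated one, 4847 with total UMIs and 8119 with these after CCl4. The zone by CCl4 term had 2338 genes and 829 with DESeq2. The middle zone had 0 genes, 3 without a filter and 8 without the healthy section. Collagen-high spots had 6846 genes, 4156 pericentrally and 1063 periportally. At 1 step there were 1595 genes, 995 with DESeq2, 856 and 830 without fibrotic replicates 1 and 2, 128 pericentrally, 158 periportally and 2411 with total UMIs. The collagen-high by Hk2 term had 143 genes, 24 with DESeq2, 365 without a filter, 264 and 37 with 5% and 20% of spots, 12 periportally and 13 without surface spots.

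Leaving out a fibrotic section leaves the section comparisons without residual degrees of freedom, so those values have no test. The section comparisons could not be paired, since each section came from its own mouse. Zones and distance classes were compared within sections, with the section as a block. Low counts limit the ligands, of which Il6, Il11 and Il22 had at most 15, 14 and 0 UMIs in a section.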

Other observations

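Spots with high local Saa3, a serum amyloid, were those whose share of Saa3 within 2 grid steps exceeded the 90th percentile of the fibrotic sections. They made up 36.3% of the Hk2-deleted section, 16.2% of fibrotic replicate 1, 0.914% of the healthy section and 0% of fibrotic replicate 2. In the Hk2-deleted section these 1404 spots had less Orm1 than the other 2461 (5215 against 6001 CPM), less Orm2 (1146 against 1323 CPM), less Orm3 (196 against 235 CPM) and less Hpx (7617 against 9242 CPM). Hp was higher in them (4108 against 3473 CPM), and so was Cebpd (66.8 against 37.8 CPM) and Socs3 (67.6 against 55.6 CPM). Fibrotic replicate 1 had the same directions, with Orm1 at 1201 against 1407 CPM, Hp at 1501 against 1432 CPM and Cebpd at 41.3 against 27.0 CPM. With these spots left out of each section, the difference of the Hk2-deleted from the fibrotic sections was 1.77 for Orm3 (edgeR, adjusted p = 0.02) and 2.05 for Orm2 (adjusted p = 0.24). The lone sections allow no test of these values within a section.

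In spots at or beside a spot with a UMI of the mesothelial genes Msln or Upk3b, in the Hk2-deleted section, Cebpd was at 68.8 CPM against 38.0 CPM elsewhere, and Hp at 3924 against 3572 CPM. In the healthy section Cebpd was at 28.1 against 26.1 CPM and Orm3 at 10.7 against 18.4 CPM in such spots.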
